A study of Rattus norvegicus with 6 samples.

Results

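The 10 genes described here encode enzymes that modify collagen and join it into fibres. They were taken by symbol from the table of counts of 19825 genes, and all 10 were present: the lysyl oxidases Lox, Loxl1, Loxl2, Loxl3 and Loxl4, the lysyl hydroxylases Plod1, Plod2 and Plod3, and the prolyl 4-hydroxylase alpha subunits P4ha1 and P4ha2. RNA sequencing gave the levels of their messages in H9C2, an established line of rat myoblasts from embryonic heart that its submitters call cardiomyocytes. The 3 siPUM2 libraries came from cells in which PUM2, a Pumilio protein that binds messages, was knocked down with transfected small interfering RNA. The 3 NC libraries came from control cells that, per the labels, received empty vector, so by that wording the groups also differ in the nucleic acid delivered. No time after transfection, dose or culture of origin is given in the sources used here, and the p-values cover no more than the spread among these libraries, part or all of which may be technical.

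Collagen chains are modified while they are still in the endoplasmic reticulum. Prolyl 4-hydroxylase, a tetramer of alpha subunits with protein disulphide isomerase, turns prolines into 4-hydroxyproline, which holds the triple helix together, and lysyl hydroxylases turn lysines into hydroxylysine, which carries sugars and forms the more stable crosslinks. Both need iron, 2-oxoglutarate and ascorbate. Once collagen is secreted and trimmed, the copper-dependent lysyl oxidases convert lysines and hydroxylysines of collagen and elastin into aldehydes that react to form crosslinks. These crosslinks stiffen heart tissue in fibrosis, the process named in the title of the series.

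The libraries held 27704702 to 30579237 counts. Each enzyme gene had at least 2031 counts in every library, the highest being 16321, and together the 10 took 0.206% to 0.217% of the counts. The targeted gene checked the labels: Pum2 stood at 127, 126 and 120 CPM (CPM puts the libraries on equal size, here with TMM factors) in siPUM2 1, 2 and 3, against 223, 228 and 225 CPM in NC 1, 2 and 3, which is 55.1% of the control level. Of 12 cardiomyocyte markers 11 were matched, and Myh6, Myh7, Tnni3, Actn2, Ryr2, Myl2, Myl7 and Mybpc3 lay under 1 CPM. The 3 that reached a mean of 1 CPM were Tnnt2, Pln and Nppb. Tnnt2 averaged 474 CPM in siPUM2 and 298 CPM in NC (log2 fold change 0.67, adjusted p = 2.86e-12, edgeR). Pln averaged 4.93 CPM in siPUM2 and 2.76 CPM in NC (0.83, adjusted p = 8.03e-05, edgeR). Nppb, at 2.35 CPM in siPUM2 and 1.86 CPM in NC, was not called. Of 7 matched markers of myoblasts and skeletal muscle 3 reached 1 CPM (Myod1, Myog and Des), and Myf6, Chrna1, Tnni1 and Ckm lay under it. The myoblast regulator Myod1 averaged 84.2 CPM in siPUM2 and 81.3 CPM in NC and was not called, while Myog, the regulator of differentiation, averaged 9.23 CPM in siPUM2 and 20.1 CPM in NC (log2 fold change -1.12, adjusted p = 1.86e-09, edgeR). Des, the muscle intermediate filament desmin, averaged 31.3 CPM in siPUM2 and 27.9 CPM in NC (0.17, adjusted p = 0.0367), a call lost with DESeq2 (0.0849), on log2 FPKM scales with limma (0.14 and 0.13) and without siPUM2 2, NC 2 or NC 3 (0.0895 to 0.161).

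Markers of other cells were also read, because in bulk samples fewer cells of a type and less RNA per cell cannot be told apart. Summed over its list, the cardiomyocyte markers held 445 to 501 CPM in siPUM2 and 280 to 335 CPM in NC, nearly all from Tnnt2. Those of myoblasts and skeletal muscle held 119 to 129 CPM in siPUM2 and 126 to 134 CPM in NC. Endothelial markers, with Pecam1, Cdh5, Kdr and Tek under 1 CPM, held 2.16 to 2.64 CPM in siPUM2 and 2.25 to 2.38 CPM in NC. Leukocyte markers, 1 of 4 at 1 CPM or more (Cd14), held 38.6 to 40.8 CPM in siPUM2 and 36.8 to 37.6 CPM in NC. Of the matched endothelial markers only Vwf reached 1 CPM, at a mean of 2.21 CPM in siPUM2 and 2.17 CPM in NC. Of the leukocyte markers Cd68, Csf1r and Itgam lay under 1 CPM, and Cd14 averaged 38.8 CPM in siPUM2 and 36 CPM in NC. Epithelial markers, 1 of 3 at 1 CPM or more (Krt8), held 35.1 to 36.9 CPM in siPUM2 and 39.4 to 47.1 CPM in NC. Schwann and neural markers, 0 of 4 at 1 CPM or more, held 0.534 to 0.756 CPM in siPUM2 and 0.828 to 1.08 CPM in NC. Fibroblast markers held 18141 to 18577 CPM in siPUM2 and 18641 to 18708 CPM in NC, from Col1a1, Col1a2, Col3a1 and Thy1, with Pdgfra, Dcn and Lum under 1 CPM. The part of these differences in the results below was not tested.

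The windows that RefSeq gives around the start sites of these genes, 250 bases before to 50 after, were available for 8 of the 10 (all but Lox and Loxl2). They were searched on both strands for ACGTG, a form of the hypoxia response element core, the GC box GGGCGG, the TATA box TATAAA and the AP-1 element TGANTCA. The other form of that core, GCGTG, was not searched or marked. Given here are the windows of Loxl3 and Loxl1, which both fell in siPUM2, of Plod1, which rose, and of P4ha2, which was not called, and capitals mark the matches.
Loxl3 (GRCr8, chr4:117098108-117098407, + strand): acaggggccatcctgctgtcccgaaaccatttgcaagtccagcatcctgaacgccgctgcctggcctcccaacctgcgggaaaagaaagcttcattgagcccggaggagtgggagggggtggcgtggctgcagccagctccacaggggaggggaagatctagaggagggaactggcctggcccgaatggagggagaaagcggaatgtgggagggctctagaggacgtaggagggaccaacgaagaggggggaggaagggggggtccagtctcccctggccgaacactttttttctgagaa
Loxl1 (GRCr8, chr8:67612175-67612474, - strand): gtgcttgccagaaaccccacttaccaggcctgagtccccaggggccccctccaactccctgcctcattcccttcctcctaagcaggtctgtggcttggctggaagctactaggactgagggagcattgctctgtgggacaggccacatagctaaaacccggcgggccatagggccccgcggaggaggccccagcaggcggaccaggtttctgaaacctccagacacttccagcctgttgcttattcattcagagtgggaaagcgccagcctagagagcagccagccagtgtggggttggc
Plod1 (GRCr8, chr5:163650688-163650987, - strand): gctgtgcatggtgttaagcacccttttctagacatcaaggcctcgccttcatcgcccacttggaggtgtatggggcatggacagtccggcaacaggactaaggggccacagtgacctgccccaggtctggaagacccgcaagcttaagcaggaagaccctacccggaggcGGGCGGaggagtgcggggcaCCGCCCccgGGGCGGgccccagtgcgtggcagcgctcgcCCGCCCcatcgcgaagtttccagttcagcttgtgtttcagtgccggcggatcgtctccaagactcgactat
P4ha2 (GRCr8, chr10:38743644-38743943, + strand): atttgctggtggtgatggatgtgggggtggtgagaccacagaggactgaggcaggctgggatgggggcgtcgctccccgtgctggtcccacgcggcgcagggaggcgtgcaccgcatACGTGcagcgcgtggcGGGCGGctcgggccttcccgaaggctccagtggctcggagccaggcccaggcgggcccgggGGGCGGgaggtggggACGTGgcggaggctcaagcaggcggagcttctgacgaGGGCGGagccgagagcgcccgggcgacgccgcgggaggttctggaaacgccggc
The Loxl3 and Loxl1 windows held none of the letters searched and had 11 and 6 CG dinucleotides, against a median of 21 over the windows of 9857 tested genes. A lower number than that of Loxl1 was found in 10.8% of those windows, and a lower number than that of Loxl3 in 20.1%. Plod1 had 4 GC boxes and 21 CG dinucleotides, P4ha2 had 3 GC boxes, 2 ACGTG matches and 33 CG dinucleotides. Among the remaining windows, Loxl4 had 27 CG dinucleotides, Plod3 30, P4ha1 33 and Plod2 40. A GC box was present in 6 of the 8 windows, against 62.3% of the windows of tested genes and 33.1% of all 33469 windows. The ACGTG form of the hypoxia response element core was in 3 (Plod2, P4ha1 and P4ha2), against 25.8% of tested genes and 19.3% of all. No window of a member held the TATA box (6.84% of tested genes, 14.2% of all) or the AP-1 element (4.84% and 7.33%). These letters describe the windows and say nothing of whether a factor binds there.

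In siPUM2 the lysyl oxidases moved in opposite directions, Plod1 rose and the prolyl 4-hydroxylase alpha subunits showed no call. Of the 10 enzymes 2 rose (Lox and Plod1), 3 fell (Loxl1, Loxl2 and Loxl3) and 5 did not pass a threshold of 0.05 on p-values from edgeR's quasi-likelihood fit, adjusted after Benjamini and Hochberg over 12985 genes. The changes were small, between a log2 fold change of -0.26 for Loxl3 and 0.17 for Plod1, with a median of -0.04, against 0.00 over all genes tested. By the same rule 28.4% of all genes were called, 15.1% higher and 13.3% lower in siPUM2. All 10 enzymes averaged at least 50 CPM, and among the 3904 tested genes at that level 50.5% were called, 24.9% higher and 25.6% lower, so that 5 of 10 is close to the share among well-expressed genes. The CPM values of the groups did not overlap for 5 of the 10 (Lox, Plod1 and Plod3 higher, Loxl1 and Loxl3 lower in siPUM2), against 39.9% of all genes tested, 20.7% higher and 19.2% lower. The share without overlap among genes at 50 CPM or more was not computed, so 5 of 10 cannot be read as an excess.

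**Figure D1:**
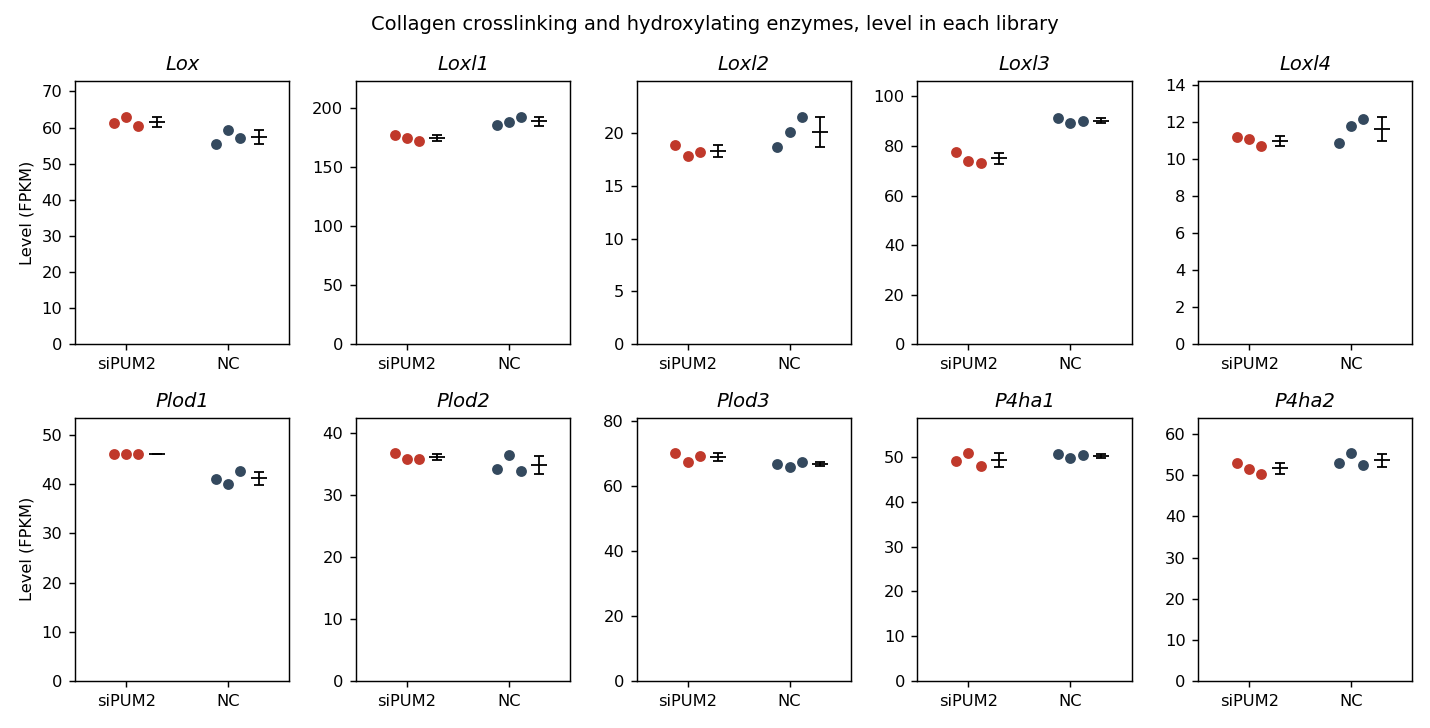
Level of each of the 10 enzyme genes in FPKM (vertical axes, each from 0), with siPUM2 libraries in red on the left and NC libraries in dark blue on the right of each panel. Points are the 3 libraries of a group in the order 1, 2 and 3, and bars the mean and SD; the groups stand apart for Lox, Loxl1, Loxl3, Plod1 and Plod3, and Loxl3 shows the widest gap for its level, 75 FPKM in siPUM2 and 90.2 FPKM in NC.

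Levels between genes are compared here in FPKM, in which fragments are divided by the length of the gene and the size of the library. Loxl1, an oxidase of elastic fibres, was the highest of the 10, at a mean of 174 FPKM in siPUM2 and 189 FPKM in NC, above 97.8% of the listed genes. Loxl3 came next in both groups, followed by Plod3 and Lox. Loxl2 (18.3 FPKM in siPUM2, 20.1 FPKM in NC) and Loxl4 (11 FPKM in siPUM2, 11.7 FPKM in NC) were the lowest. The order of the 10 by mean was the same in siPUM2 and NC. Neighbours in that order did not overlap between libraries, except P4ha2 and P4ha1 in siPUM2 and Lox and P4ha2 in NC.

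Among the lysyl oxidases, Loxl3 showed the widest difference. This enzyme carries scavenger receptor domains ahead of its catalytic domain and is needed for palate and spine development in mice. Loxl3 stood at 77.6, 74 and 73.3 FPKM in siPUM2 1, 2 and 3, against 91.4, 89.4 and 89.9 FPKM in NC 1, 2 and 3. All siPUM2 libraries were below all NC libraries, by more than the range within either group. Its log2 fold change was -0.26 ± 0.0266 (SE), which left 83.3% of the NC level (adjusted p = 1.09e-08, edgeR), and 82% of tested genes changed less. The call held under 15 alternatives, with log2 fold changes from -0.29 to -0.25 and adjusted p from 6.10e-21 to 0.00324. In the RefSeq table Loxl3 overlaps Htra2, whose log2 fold change was of the other sign but not called (0.07, adjusted p = 0.062, edgeR). Htra2 had means of 150 ± 0.299 CPM in siPUM2 and 143 ± 1.12 CPM in NC (SD, n = 3 each). Lox, Plod3 and P4ha1 also overlap other genes there, among them Rps3a-ps12 for Lox and Znhit1 for Plod3. Of the genes overlapping these only Znhit1 was tested, and it was not called (log2 fold change -0.02, adjusted p = 0.789, edgeR). Whether the counting used strand is not given in the sources used here.

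Loxl1, which acts on elastin and is tethered to elastic fibres by fibulin-5, also fell. It was measured at 177, 175 and 172 FPKM in siPUM2 1, 2 and 3, against 186, 188 and 193 FPKM in NC 1, 2 and 3. The groups did not overlap, although the gap between the nearest libraries was small beside the level. The fold change left 92.5% of the NC level (log2 fold change -0.11 ± 0.0247, SE; adjusted p = 0.000828, edgeR). This call also held under 15 alternatives, with adjusted p from 1.40e-05 to 0.019.

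Loxl2, which oxidises lysines of collagen IV in basement membranes, fell to 91.1% of the NC level in the fit, but its groups overlapped. Its values were 18.9, 17.8 and 18.2 FPKM in siPUM2 1, 2 and 3, against 18.7, 20.1 and 21.5 FPKM in NC 1, 2 and 3. NC 1 lay below siPUM2 1, and the other NC libraries lay above all siPUM2 libraries. The log2 fold change was -0.13 ± 0.0363 (SE; adjusted p = 0.00582, edgeR). The call was lost without NC 3 (-0.08, adjusted p = 0.0798, edgeR) and without siPUM2 2 (-0.11, adjusted p = 0.0565, edgeR), within a range over the 15 alternatives of 0.000323 to 0.199. Loxl4, another member with scavenger receptor domains, was not called. It stood at 11.2, 11.1 and 10.7 FPKM in siPUM2 1, 2 and 3, against 10.9, 11.8 and 12.2 FPKM in NC 1, 2 and 3, and NC 1 again lay among the siPUM2 libraries. Its log2 fold change was -0.09 with a 95% interval of -0.161 to -0.0117 (adjusted p = 0.0919, edgeR). Without NC 1 it was called (-0.13, adjusted p = 0.0203, edgeR), and its adjusted p ranged from 0.0203 to 0.434 over the alternatives.

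Lox, the founding member of the family and the oxidase of fibrillar collagens and elastin, was the one lysyl oxidase that was higher in siPUM2. Its values were 61.2, 63 and 60.5 FPKM in siPUM2 1, 2 and 3, against 55.4, 59.4 and 57.2 FPKM in NC 1, 2 and 3. The groups did not overlap, but NC 2 and siPUM2 3 were close. Lox reached 108% of the NC level (log2 fold change 0.10 ± 0.0275, SE; adjusted p = 0.0045, edgeR). The call rested on NC 1, the lowest library: without it the log2 fold change was 0.08 with an adjusted p of 0.0525 (edgeR), in a range of 0.000576 to 0.0958 over the alternatives. On the log2(FPKM + 1) scale the adjusted p for Lox was 0.0958 (limma).

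**Figure D2:**
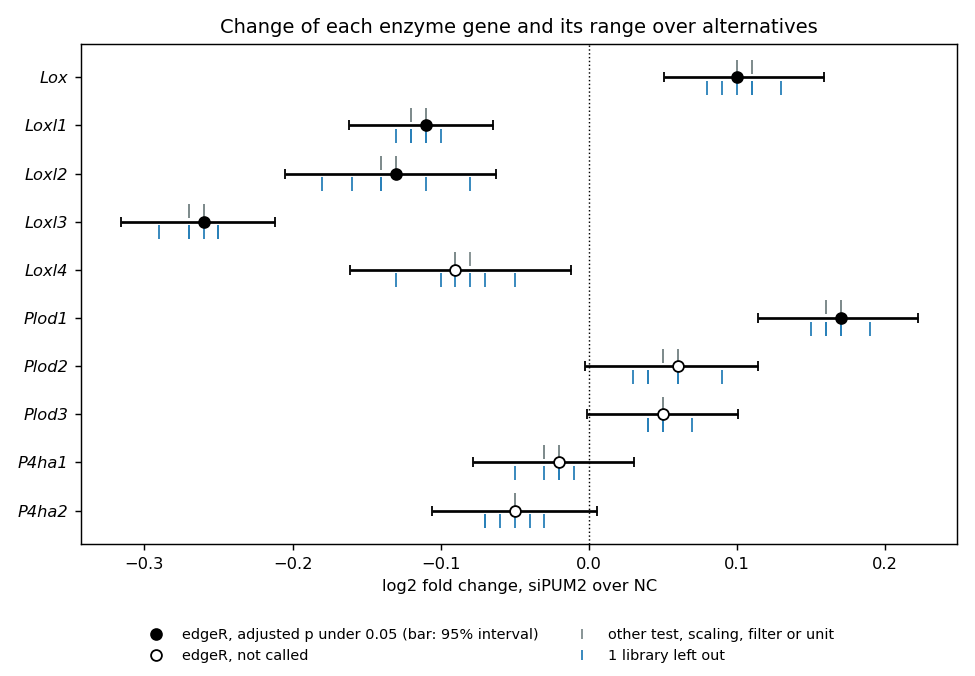
Log2 fold change of siPUM2 over NC for the 10 enzyme genes (horizontal axis, 0 dotted), as circles with 95% intervals from edgeR, filled where the adjusted p was under 0.05. Grey ticks above each circle are the values with another scaling, test, filter, unit or a replicate block, and blue ticks below are those with 1 library left out; no tick crosses 0, and Loxl2 moves most, from -0.18 to -0.08.

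The lysyl oxidase class as a whole was lower in siPUM2, and its make-up was shifted toward Lox. Summed over its 5 genes, it held 346, 340 and 334 FPKM in siPUM2 1, 2 and 3, against 362, 369 and 374 FPKM in NC 1, 2 and 3, or 92.3% of the NC mean. The groups did not overlap, and no test was made on a sum over chosen genes. Lox made up 17.7%, 18.5% and 18.1% of that sum in siPUM2 1, 2 and 3, against 15.3%, 16.1% and 15.3% in NC 1, 2 and 3. Loxl3 made up 22% ± 0.367 in siPUM2 and 24.5% ± 0.623 in NC (SD, n = 3 each), again without overlap. Loxl1, at 51.2% ± 0.106 in siPUM2 and 51.3% ± 0.298 in NC, held about the same share, and the shares of Loxl2 and Loxl4 overlapped between the groups. Per FPKM of Loxl3 there was 0.822 ± 0.0315 FPKM of Lox in siPUM2 and 0.636 ± 0.0292 in NC.

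**Figure D3:**
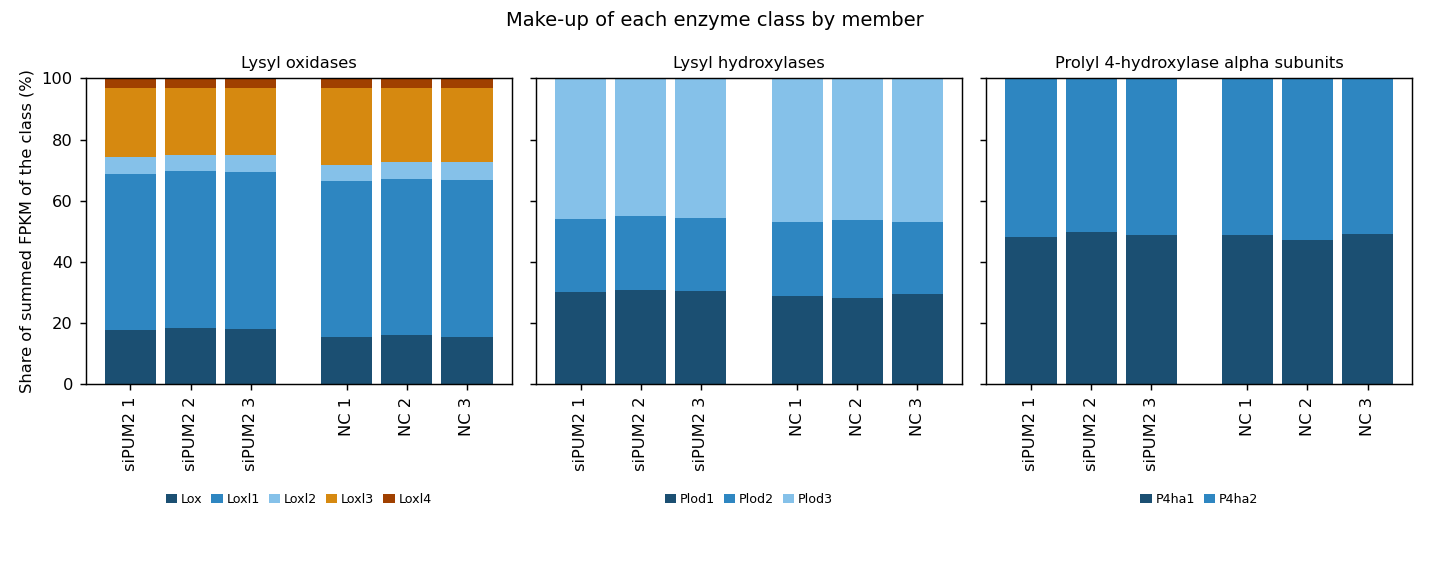
Share of each gene in the summed FPKM of its class (vertical axis, percent), by library, siPUM2 left of NC in each panel. In the lysyl oxidase panel the Lox block is taller and the Loxl3 block shorter in all 3 siPUM2 libraries (18.1% and 22% on average) than in NC (15.6% and 24.5%); the blocks of P4ha1 and P4ha2 are alike in both groups.

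Of the lysyl hydroxylases, which act on nascent chains, Plod1 rose. It encodes lysyl hydroxylase 1, the enzyme for lysines within the triple helix, which is mutated in the kyphoscoliotic form of Ehlers-Danlos syndrome in humans. Plod1 stood at 46.1, 46.2 and 46.2 FPKM in siPUM2 1, 2 and 3, against 41, 40 and 42.6 FPKM in NC 1, 2 and 3. The siPUM2 libraries lay almost on top of each other and above every NC library. The log2 fold change was 0.17 ± 0.0276 (SE), or 112% of the NC level (adjusted p = 2.77e-05, edgeR). Under 15 alternatives it stayed between 0.15 and 0.19, with adjusted p from 5.13e-07 to 0.0121.

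Plod2 and Plod3 were not called. Plod2, the hydroxylase of telopeptide lysines that sets the type of crosslink, had 36.8, 35.9 and 35.8 FPKM in siPUM2 1, 2 and 3, against 34.2, 36.5 and 33.9 FPKM in NC 1, 2 and 3. NC 2 lay within the siPUM2 libraries, and without NC 2 the gene was called (log2 fold change 0.09, adjusted p = 0.0314, edgeR; range over alternatives 0.0314 to 0.473). With all libraries its log2 fold change was 0.06, with a 95% interval of -0.00245 to 0.114 (adjusted p = 0.171, edgeR). Plod3, which also transfers sugars to hydroxylysine, had 70.2, 67.6 and 69.3 FPKM in siPUM2 1, 2 and 3, against 66.9, 66.1 and 67.5 FPKM in NC 1, 2 and 3. Its groups barely separated, with a log2 fold change of 0.05 and an interval of -0.00107 to 0.101 (adjusted p = 0.16, edgeR). The summed level of the class was 153, 150 and 151 FPKM in siPUM2 1, 2 and 3, against 142, 143 and 144 FPKM in NC 1, 2 and 3, or 106% of the NC mean. Plod1 held 30.5% ± 0.377 of that sum in siPUM2 and 28.8% ± 0.762 in NC (SD, n = 3 each).

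The prolyl 4-hydroxylase alpha subunits, which carry the catalytic site, showed no call. P4ha1 had 49.2, 51 and 48 FPKM in siPUM2 1, 2 and 3, against 50.7, 49.8 and 50.5 FPKM in NC 1, 2 and 3. P4ha2 had 53.1, 51.6 and 50.4 FPKM in siPUM2 1, 2 and 3, against 53.1, 55.4 and 52.4 FPKM in NC 1, 2 and 3. Both overlapped between the groups. The log2 fold change of P4ha1 was -0.02, with a 95% interval of -0.0783 to 0.0305 (adjusted p = 0.573, edgeR). That of P4ha2 was -0.05, with an interval of -0.106 to 0.0057 (adjusted p = 0.201, edgeR). Neither was called under any of the 15 alternatives run. Their summed level was 102, 103 and 98.5 FPKM in siPUM2 1, 2 and 3, against 104, 105 and 103 FPKM in NC 1, 2 and 3, or 97.2% of the NC mean. These sums did not overlap between the groups, although siPUM2 2 and NC 3 were close. P4ha1 made up 48.9% ± 0.785 of the summed level of P4ha1 and P4ha2 in siPUM2 and 48.4% ± 0.934 in NC (SD, n = 3 each). P4ha3, another alpha subunit, was not part of that sum, though its level was higher, at 65.5 FPKM in siPUM2 and 66.2 FPKM in NC.

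The enzymes work with partner proteins, 39 of which were listed as hydroxylation partners, folding and export factors, factors that trim collagen or activate lysyl oxidases, and other crosslinking enzymes. Of 32 tested, 14 rose and 3 fell, 15 were not called, and the median log2 fold change was 0.07. The share that rose was 43.8% and the share that fell 9.38%, against 15.1% and 13.3% of all genes tested, and 20 of the 32 averaged at least 50 CPM, a level at which 24.9% of genes rose and 25.6% fell.

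Of the hydroxylation partners 6 of 10 tested rose and none fell, with a median log2 fold change of 0.07. At least 50 CPM was averaged by 9 of the 10, a level at which 24.9% of genes rose and 25.6% fell. The calls for P4hb, P3h1 and Fkbp10 were lost in some alternatives, as given below. Tmem38b, a cation channel of the endoplasmic reticulum, showed the largest rise of this list, at 31.4, 30.3 and 33.3 CPM in siPUM2 1, 2 and 3, against 24, 21.9 and 23.5 CPM in NC 1, 2 and 3 (log2 fold change 0.45 ± 0.0592, SE; adjusted p = 8.69e-07, edgeR). The groups were well apart. P3h3 and P3h4, named here after their values were seen, are known from mice to form a complex with the Plod1 product and the Ppib product, cyclophilin B. P3h3 reached 111% of its NC level (0.15 ± 0.0276, SE; adjusted p = 0.000163, edgeR) and P3h4 115% (0.20 ± 0.0321; adjusted p = 1.75e-05), beside 112% for Plod1. Ppib, at 520 ± 18.5 CPM in siPUM2 and 535 ± 16 CPM in NC (SD, n = 3 each), was not called.

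The beta subunit of prolyl 4-hydroxylase, P4hb, also known as protein disulphide isomerase, averaged 586 FPKM in siPUM2 and 561 FPKM in NC. There was 11.9 ± 0.368 FPKM of P4hb per FPKM of P4ha1 in siPUM2 and 11.1 ± 0.0823 in NC (SD, n = 3 each). Its log2 fold change of 0.07 was called (adjusted p = 0.0363, edgeR), but not when any library except siPUM2 3 was left out (adjusted p 0.0659 to 0.143). The third alpha subunit, P4ha3, was not called, at 65.5 FPKM in siPUM2 and 66.2 FPKM in NC, so its level was above those of P4ha1 and P4ha2. P3h1, a prolyl 3-hydroxylase, was called at 0.07 (adjusted p = 0.0462, edgeR) and lost the call without each library in turn except NC 2 (adjusted p 0.0678 to 0.2). The P3h1 call was also lost with RLE factors (0.0554), DESeq2 (0.15), limma voom (0.0723), no filter on low counts (0.0896) and limma on log2(FPKM + 1) and log2(FPKM + 0.1) (0.0887 and 0.0952). On those FPKM scales the calls for P4hb (0.0653 and 0.078) and Fkbp10 (0.0859 and 0.0861) were lost too. The partner of P3h1, Crtap, listed under its older symbol Crtapl1, had 0.06 (adjusted p = 0.0501) and was called without NC 3 (adjusted p = 0.0359). With all libraries Crtap was called in edgeR on library size alone (adjusted p = 0.0442), with DESeq2 (0.0495) and with limma voom (0.0426). Fkbp10, which assists telopeptide lysyl hydroxylation, had 0.09 (adjusted p = 0.0135), and lost the call without siPUM2 1 (0.0977) or NC 1 (0.0814). Colgalt1, the galactosyltransferase of hydroxylysine, was not called (0.06, adjusted p = 0.091).

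**Figure D4:**
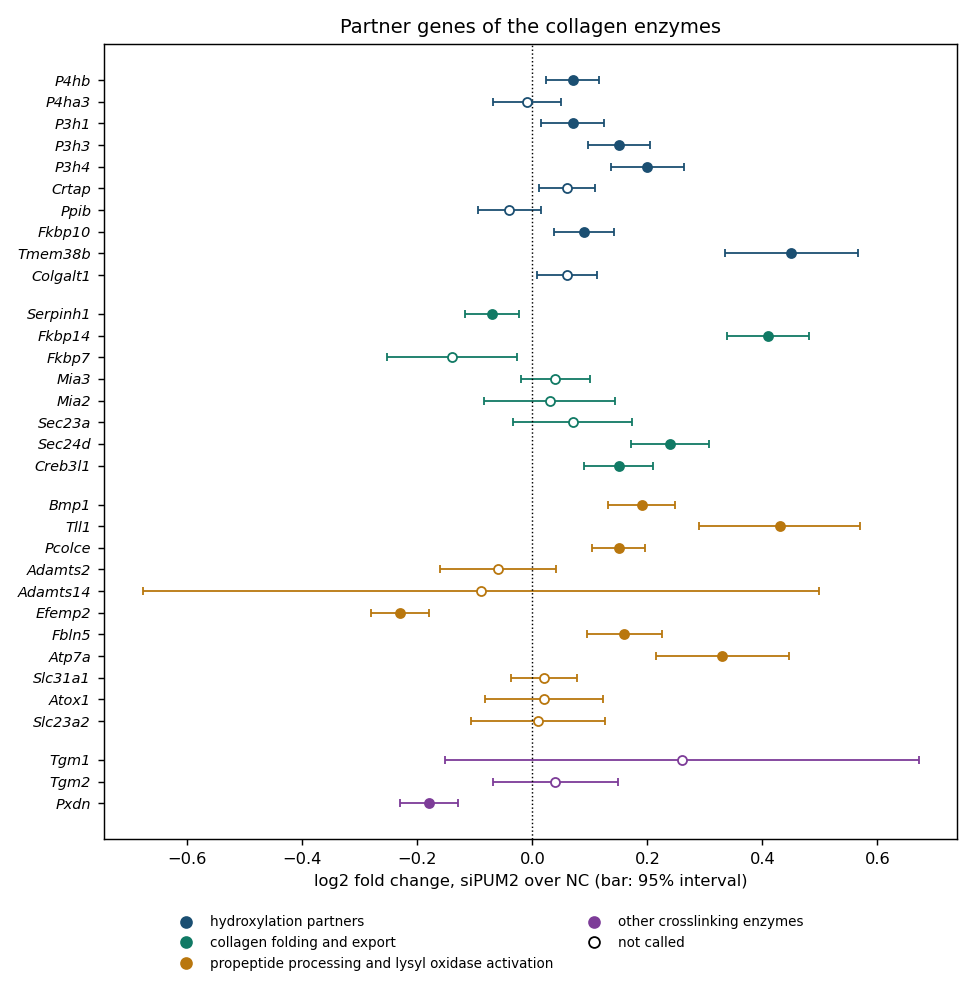
Log2 fold change of siPUM2 over NC (horizontal axis, with 95% intervals from edgeR) for the 32 tested partner genes, coloured by list, with filled circles for an adjusted p under 0.05. Filled circles lie right of 0 for 14 genes, among them Tmem38b (0.45), Tll1 (0.43) and Fkbp14 (0.41), and left of 0 for Serpinh1 (-0.07), Efemp2 (-0.23) and Pxdn (-0.18).

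Of 8 folding and export genes 3 rose and 1 fell, with a median log2 fold change of 0.05. At least 50 CPM was averaged by 5 of the 8, a level at which 24.9% of genes rose and 25.6% fell. Fkbp14, a prolyl isomerase of the endoplasmic reticulum whose loss gives a form of Ehlers-Danlos syndrome close to that of PLOD1 in humans, stood at 90.5, 89.4 and 93.2 CPM in siPUM2 1, 2 and 3, against 73.1, 66.8 and 65.8 CPM in NC 1, 2 and 3. It reached 133% of the NC level (log2 fold change 0.41 ± 0.0365, SE; adjusted p = 1.08e-09, edgeR). Sec24d, a coat protein of the vesicles that export collagen, rose by a log2 fold change of 0.24 (adjusted p = 3.49e-06), and Creb3l1, a transcription factor of collagen secretion, by 0.15 (adjusted p = 0.000447). The call for Creb3l1 was lost on both FPKM scales (limma, adjusted p 0.0681 with 1 added and 0.0618 with 0.1). Serpinh1, the collagen chaperone HSP47, averaged 2404 ± 31.9 CPM in siPUM2 and 2522 ± 16.7 CPM in NC (SD, n = 3 each). Its log2 fold change of -0.07 was called (adjusted p = 0.0286, edgeR), but not when any library except siPUM2 3 was left out (adjusted p 0.0628 to 0.122) and not on the FPKM scales (0.0571 and 0.0654).

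Of 11 tested genes that trim collagen or serve lysyl oxidases 5 rose and 1 fell, with a median log2 fold change of 0.02. At least 50 CPM was averaged by 5 of the 11, a level at which 24.9% of genes rose and 25.6% fell. Bmp1, the proteinase that removes the C-propeptide of procollagen and the propeptide of Lox, had 133, 134 and 126 CPM in siPUM2 1, 2 and 3, against 114, 113 and 118 CPM in NC 1, 2 and 3 (log2 fold change 0.19 ± 0.0295, SE; adjusted p = 1.28e-05, edgeR). Its relative Tll1, named after its values were seen, rose by 0.43 (adjusted p = 3.60e-05), and Pcolce, which enhances Bmp1, by 0.15 (adjusted p = 1.18e-05). The call for Tll1 was lost on the FPKM scales (limma, adjusted p 0.054 and 0.0852). For Bmp1, Tll1 and Pcolce the siPUM2 libraries all lay above the NC libraries in CPM, as for 20.7% of all genes tested in that direction. Adamts2, the N-propeptide proteinase, also named after its values were seen, was not called (-0.06, adjusted p = 0.433), although its siPUM2 libraries all lay below its NC libraries, as for 19.2% of all genes. Atp7a, the pump that loads copper onto lysyl oxidases, had 24.6, 25.1 and 24.2 CPM in siPUM2 1, 2 and 3, against 18.9, 20.5 and 19.3 CPM in NC 1, 2 and 3 (0.33 ± 0.0589, SE, adjusted p = 8.59e-05, edgeR). Slc31a1 (0.02, adjusted p = 0.629, edgeR) and the copper chaperone Atox1 (0.02, adjusted p = 0.84), on the same list and named after their values were seen, were not called. The fibulins that dock lysyl oxidases on elastic fibres had log2 fold changes of opposite sign. Efemp2, or fibulin-4, which binds Lox, stood at 330, 321 and 333 CPM in siPUM2 1, 2 and 3, against 394, 378 and 382 CPM in NC 1, 2 and 3 (-0.23 ± 0.0259, SE; adjusted p = 7.22e-08, edgeR). Fbln5, or fibulin-5, which binds Loxl1, rose by 0.16 ± 0.0335 (SE; adjusted p = 0.000583, edgeR), a call lost with limma on log2(FPKM + 1) and log2(FPKM + 0.1) (adjusted p 0.06 and 0.0537, log2 fold change 0.15 in both).

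Among other crosslinking enzymes, 1 of 3 tested was called (33.3%, against 28.4% of all genes tested), with a median log2 fold change of 0.04. Peroxidasin (Pxdn), which links collagen IV by sulfilimine bonds, averaged 181 ± 0.703 CPM in siPUM2 and 206 ± 3.78 CPM in NC (SD, n = 3 each; log2 fold change -0.18, adjusted p = 3.00e-06, edgeR). The transglutaminases Tgm2 (0.04, adjusted p = 0.676) and Tgm1 (0.26, adjusted p = 0.4, under 2 CPM) were not called.

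Of 10 tested fibrillar collagens, substrates of these enzymes, 1 rose, 3 fell and 6 did not pass. Elastin (Eln), on the same list, was not matched and so not analysed here. The median log2 fold change of the 10 was -0.01. The share called was 40%, against 28.4% of all genes tested and 50.5% of those at 50 CPM or more, a level that 5 of the 10 reached. Those that fell were Col3a1 (-0.10, adjusted p = 0.00157, edgeR), Col5a1 (-0.10, 0.00489) and Col1a1 (-0.08, 0.0116). The call for Col5a1 was lost without NC 2 (adjusted p = 0.0512), and that for Col1a1 without siPUM2 2 (0.0844) or NC 2 (0.0716). On the FPKM scales both calls were lost (limma, adjusted p 0.0641 to 0.0927). The one that rose, Col11a1, a chain of type XI collagen named after its values were seen, averaged 49.2 ± 2.32 CPM in siPUM2 and 43.8 ± 2.95 CPM in NC (SD, n = 3 each), and the groups overlapped (0.17, adjusted p = 0.0193, edgeR). Its call was lost without siPUM2 1, siPUM2 2, NC 1 or NC 3 (adjusted p 0.0503 to 0.165) and on the FPKM scales (0.192 and 0.178). Of 3 tested basement membrane collagens 1 was called (33.3%): Col4a1 fell by 0.08 on the log2 scale (adjusted p = 0.00844; 0.0549 without siPUM2 2), and Col4a2 (-0.05, 0.149) and Col4a5 (0.07, 0.0972) were not called. Set against Col1a1, there was 0.0509 ± 0.00202 FPKM of Lox per FPKM in siPUM2 and 0.0446 ± 0.00131 in NC, and 0.062 ± 0.0013 FPKM of Loxl3 in siPUM2 and 0.0702 ± 0.00146 in NC (SD, n = 3 each). For Loxl1 that ratio overlapped, at 0.144 ± 0.00307 in siPUM2 and 0.147 ± 0.00155 in NC.

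Lox, Plod1, Plod2, P4ha1 and P4ha2 are known targets of hypoxia-inducible factor, and Lox also of transforming growth factor beta, so genes known to answer to each were read beside them. Of 13 tested hypoxia-induced genes 3 rose, none fell and 10 did not pass, and the median log2 fold change was 0.04. The share called was 23.1%, against 28.4% of all genes tested. Adrenomedullin (Adm) rose by 0.67, the mitophagy receptor Bnip3 by 0.42 and carbonic anhydrase 9 (Ca9) by 0.30 (adjusted p = 1.30e-09, 7.49e-08 and 0.000235, edgeR). Of 10 tested genes induced by transforming growth factor beta 3 rose and 5 fell, with a median of -0.02. The share called was 80%, against 28.4% of all genes tested and 50.5% of those at 50 CPM or more, a level that 8 of the 10 reached. The matrix genes Postn (-0.63, adjusted p = 2.58e-11) and Tgfbi (-0.59, 9.58e-15) fell and the contractile gene Tagln (0.27, 1.63e-09) rose.

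The genes whose pattern over the 6 libraries was most like that of Loxl3 were sought among 8717 others with a mean of at least 10 CPM, as the mean absolute difference in log2 CPM after the NC mean was subtracted. They were Eif4a1, a translation initiation helicase (0.0179), Ttk, a mitotic kinase (0.0179), and Gpnmb, a membrane glycoprotein (0.0186). Eif4a1 had 847, 837 and 839 CPM in siPUM2 1, 2 and 3, against 1047, 1009 and 998 CPM in NC 1, 2 and 3. With so few libraries the measure reflects mainly the size of the difference between the groups.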

How the data were processed

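RNA of 6 H9C2 libraries, 3 siPUM2 and 3 NC, grouped by title, was captured by its poly(A) tail and sequenced in directional paired-end libraries, per the labels. The authors deposited whole-number counts per gene (19825 genes), not normalized, and FPKM values (19535 genes). HISAT2, DESeq2 and the build mRatBN7.2 are named in the submitters' processing notes. Which program counted the reads, and with which annotation and strand setting, is not given in the sources used here.

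All genes were tested with edgeR 4.0.16 (quasi-likelihood, TMM factors, filterByExpr, group as the only term) in R 4.3.3, which left 12985 genes; all 10 enzymes passed the filter. Levels are CPM with TMM scaling or the authors' FPKM, as mean ± SD. A log2 fold change is siPUM2 minus NC; its SE comes from the F statistic and its 95% interval from a normal approximation. Alternatives were other scaling, DESeq2 1.42.0, limma 3.58.1 (voom, or log2 FPKM plus 1 or 0.1), other filters, a replicate block and each library left out. The test was also run on simulated data, and the outcome is not given here. The smallest change set there was larger than that of every enzyme but Loxl3. Chi-square tests of counts gave 2.08 to 3.82 per degree of freedom between libraries of a group, above sampling noise, so none was counted as a copy.

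The members and lists were chosen with earlier results of these data known. The text names the 10 enzymes, Pum2, fixed direct partners and the 3 genes of each further list with the lowest p. P3h3, P3h4, Tll1, Adamts2, Slc31a1, Atox1, Col11a1, Myod1, Myog and Des were added after their values were seen, as was the background of genes at 50 CPM or more. The values of Tnnt2, Pln, Nppb, Vwf and Cd14 were also added then. Of 142 list entries, 123 matched by symbol and 2 by an older symbol; 17 were not analysed here. Promoter windows came from RefSeq, build GRCr8. Where a gene had several windows, only the first listed was used for the members and the tested genes. Every window was kept for the share of all windows.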

Additional observations from a re-analysis of the deposited data

How the results depend on the processing

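Among the 10 enzymes no log2 fold change turned sign under the 15 alternatives, and the calls for Loxl1, Loxl3 and Plod1 held in all of them. The counts of 2 enzymes higher and 3 lower were unchanged with RLE factors, library size alone, DESeq2, limma voom, either other filter, an adjusted p under 0.01 and the replicate block. The block left 1984 genes higher and 1747 lower of all tested, and P3h1 was not called (adjusted p = 0.0765); same-numbered libraries did not deviate together (correlations 0.0342, 0.0204 and 0.0027), so the numbers were not taken as pairs. With limma on log2(FPKM + 1), 1 enzyme was higher and 2 lower, 8 partner genes were higher, 4 genes of the substrate and induced lists were lower, and 1160 genes in all were higher and 1086 lower. With log2(FPKM + 0.1) these were 1, 2, 8, 5, 1176 and 1120. The enzymes lost were Lox and Loxl2, and the cause was not tested. At an adjusted p under 0.01, 1126 genes in all were lower. Leaving out 1 library gave 1 to 3 enzymes higher, 2 to 4 lower and 11 to 13 partners higher. With 1 library left out, summed FPKM of the lysyl oxidases ranged from 91.6% to 93.1% of NC. Summed in CPM in place of FPKM, with all libraries, it was 94.2%. Each enzyme had at least 2031 counts a library, and the 95% intervals still reached 0 for Plod2, Plod3, P4ha1 and P4ha2.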
